A study of Mus musculus with 64 samples.

Results

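Wound beds of mouse colon sampled 6 d after a pinch biopsy were compared with normal colon sampled 6 d after a sham procedure. The comparison rests on 10 of the 64 libraries of the series, 5 per group, which were chosen by their titles and condition labels and not by any measured value. All were made from poly(A) RNA of colon of C57BL/6 mice, a common inbred laboratory strain, with no genetic change named in the labels. A pinch biopsy takes a small piece of mucosa from the colon wall with forceps, and the wound bed is the tissue at that place. The labels of all 10 libraries carry a treatment text on antibiotics in the drinking water and wound beds taken at 6 h, while their conditions name only the procedure and the time, so whether these mice had antibiotics is not stated. The labels give no age, sex, segment of colon, time of day or pooling of animals, and do not state whether each library came from its own animal. The p-values therefore measure only the spread between libraries within the groups of the whole time course, which may be technical. Sampling at 1 h, 6 h, 3 d and 6 d made up a time course of 41 libraries, and 6 d was its last time.

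Repair of a mucosal wound passes through overlapping phases. Neutrophils and then monocyte-derived macrophages enter, a sheet of flattened wound-associated epithelium covers the bed, and fibroblasts and endothelial cells build granulation tissue, whose collagen is crosslinked by lysyl oxidases and remodelled by metalloproteases. In intact colon, surface colonocytes take up salt and water through ion exchangers, carbonic anhydrases and aquaporins, while goblet cells secrete mucus and stem cells at the crypt base renew the epithelium.

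The deposited values were FPKM, fragment numbers scaled by transcript length and library size, for 23997 gene symbols, so levels can be compared between genes per length, but read counts and depth are unknown. Each 6 d library held 12003 to 12791 symbols at 1 FPKM or more. Correlations of log2 values were 0.9582 to 0.9794 among the wound libraries, 0.9639 to 0.9758 among the shams and 0.9281 to 0.9594 between the groups. Sham 2 stood apart in that small RNA symbols took 24.167% of its FPKM, with 15.98% in 1 symbol. Wound library 3 and sham 2 were rich in B cell genes, with summed levels of 602 and 251 FPKM against 4.6 to 29.1 FPKM in the other 8 libraries. Counts described below that move by over 1.5 times without those 2 libraries are given with the count without them.

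Tests used log2(FPKM + 1), a scale that understates changes of genes near 0, and a linear model fitted with limma to all 41 libraries of the time course. Changes are given as the log2 difference, wound minus sham, with its standard error (SE), and p-values were adjusted over all 13285 genes tested by the Benjamini-Hochberg method. At an adjusted p under 0.05, 5875 genes (44.2%) differed, 4524 (34.1%) higher and 1351 (10.2%) lower in the wound bed. The split between directions depended on scaling. The median change of all genes was 0.11, and scaling by the median of ratios between libraries, which set that median to 0.0, gave 2407 higher (18.1%) and 2346 lower (17.7%). Small changes near that shift have no firm direction, and counts are therefore given under both scalings for the lists described. Each list count is to be read beside these shares of all genes. Members and lists were chosen with earlier results of these data known, so a list count describes its members and is not independent support. Changes of at least 1 were fewer, with 297 genes higher (2.24%) and 98 lower (0.738%). In 3474 genes (26.1%) every wound library lay above every sham, and in 912 (6.86%) every one lay below.

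The largest rises among well-expressed genes came from secreted matrix, epithelial and inflammatory products. Spp1, which encodes the matrix protein and macrophage cytokine osteopontin, was at 21.9, 17.2, 16.7, 25.5 and 37.5 FPKM in the wound libraries. The shams held 0.0228, 0.0497, 0.0486, 0.107 and 0.0776 FPKM of it. Thus every wound library was far above every sham, and Spp1 rose by 4.48 ± 0.23 (SE, limma adjusted p = 3.15e-17). It was followed by Retnlb (3.9), the WAP-domain gene Wfdc18 (3.87), the keratin gene Krt14 (3.86), the kallikrein Klk15 (3.78) and the neutrophil alarmin S100a9 (3.68). The largest falls were in Retnla, which encodes a resistin-like protein made by alternatively activated macrophages among other cells (-3.2), the chloride-bicarbonate exchanger Slc26a3 (-2.28), the carbonic anhydrase Car4 (-2.14), the clock output gene Dbp (-2.14) and the water channel Aqp8 (-2.05). The globin gene Hba-a2 also fell (-2.3, SE 0.73), but it has a near-identical copy, so its reads may be split, and wound library 3 held 2.91 FPKM against at most 0.00715 in the other 4.

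**Figure D1:**
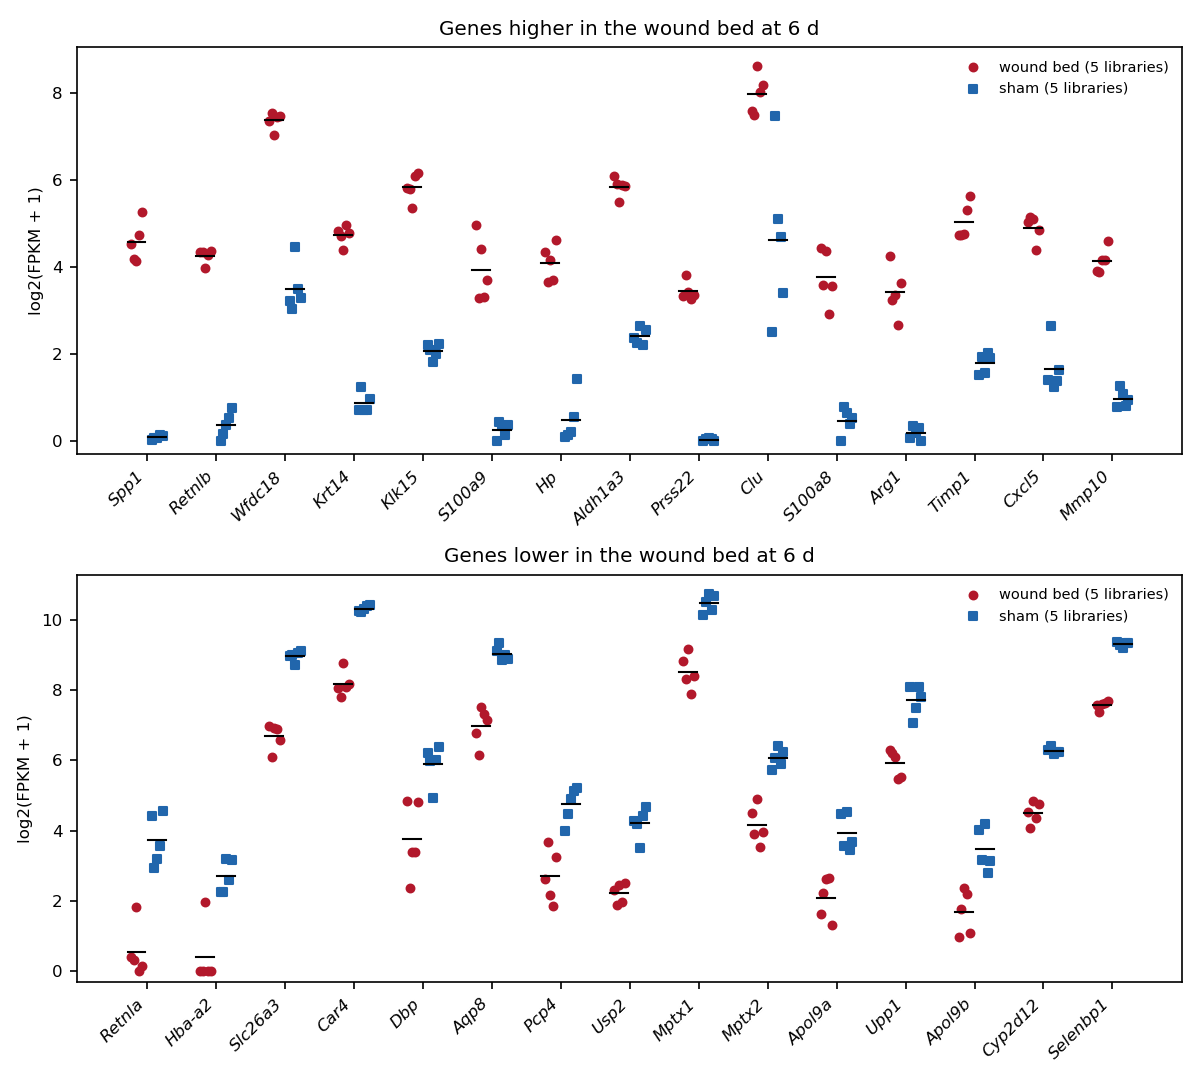
Level of the 15 largest rises (top) and 15 largest falls (bottom) in the wound bed at 6 d, on a log2(FPKM + 1) scale, with 1 point per library (circles, 5 wound beds; squares, 5 shams) and a line at each group's mean. Groups do not overlap in any gene shown, because that was a condition for being chosen, and Clu has the widest spread among the shams of the rises.

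Matrix genes rose together at 6 d. Col1a1, the main chain of fibrillar type I collagen, was at 167, 168, 186, 269 and 328 FPKM in the wound libraries and at 27.2, 31.4, 36.2, 34 and 37.9 FPKM in the shams. The groups did not overlap, with wound libraries 4 and 5 highest, and the change was 2.66 ± 0.25 (SE, limma adjusted p = 2.68e-10). Of 18 tested collagen genes, 17 rose and none fell, with a median change of 1.43 against 0.11 for all genes, and 16 rose under median of ratios scaling. Col18a1, whose chain lies in basement membranes and yields endostatin, rose from 7.32 ± 1.13 to 41.3 ± 10.1 FPKM (SD, n = 5 each), and Col1a2 from 52.0 ± 4.39 to 219 ± 53.6 FPKM. The member outside the count was Col14a1, named after its values were seen, at 3.6 ± 0.434 FPKM in wounds and 3.54 ± 0.54 FPKM in shams (limma adjusted p = 0.916).

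Enzymes and proteins that assemble collagen behaved in the same direction. Of 25 tested genes of crosslinking and matrix assembly, 22 rose and none fell (21 and none under median of ratios), with a median change of 0.94. Lox, the copper-dependent oxidase that starts collagen crosslinks, was at 10.3, 12.6, 10.7, 17.8 and 15.2 FPKM in wounds and at 1.13, 1.18, 1.33, 1.69 and 1.46 FPKM in shams. No wound library came near the shams, and Lox rose by 2.58 ± 0.18 (SE, limma adjusted p = 1.23e-13). Its relative Loxl2 rose from 8.45 ± 1.07 to 26.5 ± 3.47 FPKM. The small proteoglycan gene Fmod, which regulates collagen fibril growth, rose from 0.775 ± 0.0541 to 6.2 ± 3.31 FPKM, and Ltbp2, a microfibril-associated protein, by 1.8 ± 0.2 (SE). Another small proteoglycan, Dcn, was abundant and passed no threshold, at 188 ± 20.7 FPKM in wounds and 181 ± 15.3 FPKM in shams (limma adjusted p = 0.778), and it was also picked after its values were seen.

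Matricellular proteins, which sit in the matrix and bind cells or growth factors, rose in 10 of 13 tested members (10 under median of ratios), with a median change of 1.18. After Spp1, the largest rises were in Cthrc1 (0.119 ± 0.0748 to 4.78 ± 2.09 FPKM), Sparc (110.3 ± 13.9 to 337 ± 54.8 FPKM) and the thrombospondin Thbs2 (2.17 ± 0.614 to 8.86 ± 3.49 FPKM). Vcan, a large proteoglycan of provisional matrix, rose from 2.25 ± 0.386 to 7.59 ± 1.47 FPKM. Sparcl1, a relative of Sparc, was the member that fell, from 89.4 ± 22.5 to 46.6 ± 13 FPKM (limma adjusted p = 0.0199). Its groups overlapped, and its call was lost without wound library 4 (adjusted p = 0.051) or without sham 5 (adjusted p = 0.0549).

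Proteases that cut the matrix rose beside their inhibitors, in 14 of 18 tested members and 14 under median of ratios, with a median change of 1.31. Mmp10, a stromelysin made by wound-edge epithelium in skin and gut, was at 14.1, 13.7, 16.8, 16.8 and 23.3 FPKM in wounds and at 0.706, 1.39, 1.12, 0.756 and 0.927 FPKM in shams. The collagenase gene Mmp13 was at 12.6, 13.8, 15.3, 15.3 and 15 FPKM in wounds and at 1.21, 1.99, 1.21, 1.6 and 1.7 FPKM in shams. Both genes were higher in every wound library than in any sham, and they rose by 3.17 ± 0.18 and 2.61 ± 0.16 (SE). Timp1, a secreted inhibitor of metalloproteases, was at 25.5, 25.8, 26.1, 38.8 and 48.5 FPKM in wounds and at 1.84, 2.83, 1.96, 3.05 and 2.75 FPKM in shams, a rise of 3.25 ± 0.25. The gelatinase Mmp9 rose from 0.153 ± 0.128 to 3.68 ± 0.885 FPKM.

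The promoters of both metalloproteases carry the motif TGANTCA, which AP-1 transcription factors bind, and are shown for that reason. The sequences are from RefSeq in build GRCm38.p6, from 250 bases before to 50 after the annotated start, 5′ to 3′ on the gene's strand, at chr9:7502092-7502391 (plus strand) for Mmp10 and chr9:7272264-7272563 (plus strand) for Mmp13. Capitals mark the motif.
Mmp10: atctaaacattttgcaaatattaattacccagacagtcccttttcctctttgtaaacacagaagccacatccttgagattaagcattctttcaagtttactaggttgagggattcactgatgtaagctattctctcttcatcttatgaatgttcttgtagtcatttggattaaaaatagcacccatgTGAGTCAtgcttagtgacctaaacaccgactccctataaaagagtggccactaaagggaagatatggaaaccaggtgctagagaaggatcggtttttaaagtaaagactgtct
Mmp13: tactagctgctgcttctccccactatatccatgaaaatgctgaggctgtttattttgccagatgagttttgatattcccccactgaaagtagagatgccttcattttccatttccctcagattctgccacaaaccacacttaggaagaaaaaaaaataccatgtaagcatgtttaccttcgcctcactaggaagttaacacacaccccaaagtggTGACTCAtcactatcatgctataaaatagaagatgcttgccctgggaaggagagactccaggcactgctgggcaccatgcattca
The match starts 63 bases before the annotated start in Mmp10 and 35 bases before it in Mmp13. Searched on both strands, the motif was present in a window of 5 of the 13 genes of the protease list that matched a promoter (38.5%: Mmp3, Mmp7, Mmp10, Mmp12 and Mmp13) and of 8.97% of all 27025 genes in the table. Of the 15 largest rises, 8 had a promoter there and 1 of those held the motif (12.5%). A match describes letters in a window and does not show that a factor was bound.

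**Figure D2:**
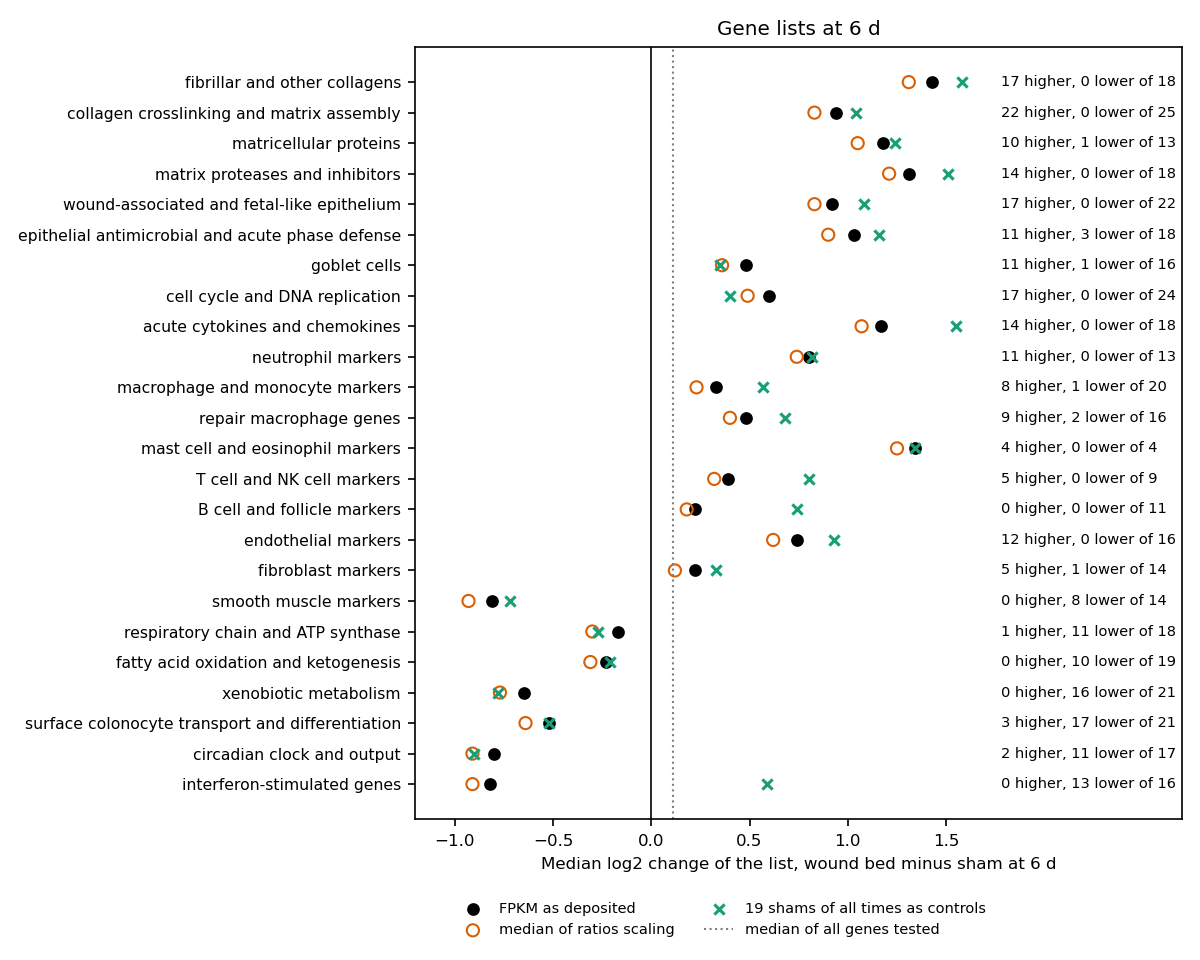
Median log2 change (wound minus sham at 6 d) of 24 gene lists, with FPKM as deposited (filled points), after median of ratios scaling (open circles) and with all 19 shams of the time course as controls (crosses). The dotted line is the median of all genes tested, and the text at the right counts members that passed the test. Collagens have the highest median as deposited, at 1.43. The list of interferon-stimulated genes lies at -0.82 against the 6 d shams and at 0.59 against all shams.

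Genes of wound-associated and fetal-like epithelium rose in 17 of 22 tested members, with none lower (16 under median of ratios) and a median change of 0.92. Clu, a secreted chaperone that marks regenerating intestinal cells, was at 189.6, 180.3, 394, 259 and 291 FPKM in wounds and at 4.64, 176, 33.5, 24.6 and 9.53 FPKM in shams. The groups did not overlap, but sham 2, one of the libraries rich in B cell genes, almost reached the lowest wound library. Clu rose by 3.35 ± 0.59 (SE, limma adjusted p = 2.3e-05). Plet1, a surface protein of wound-edge colon epithelium, rose from 0.906 ± 0.795 to 10.2 ± 1.88 FPKM, and Sprr1a, a cornified envelope precursor also made in injured epithelium, from 2.8 ± 1.05 to 13.9 ± 2.5 FPKM. Ly6d reached 79.7 FPKM in wound library 3 and 29.1 FPKM in sham 2, and its groups overlapped. It rose by 2.14 ± 0.63 (limma adjusted p = 0.00608), a call that was lost when only the 10 libraries were fitted (adjusted p = 0.0658), and the part of the B cell genes in it was not tested. Aldh1a3, an enzyme of retinoic acid synthesis, rose from 4.34 ± 0.687 to 56.9 ± 8.1 FPKM, and Prss22, a secreted serine protease, from 0.0217 ± 0.0223 to 9.95 ± 1.75 FPKM.

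Keratins of stratified epithelium were part of the rise. Krt14, which pairs with Krt5 in basal cells of stratified epithelium, was at 27.4, 25.0, 19.8, 30.0 and 26.5 FPKM in wounds. It was at 0.639, 1.38, 0.642, 0.629 and 0.955 FPKM in shams. All 5 wound libraries were higher than all 5 shams, and the change was 3.86 ± 0.22 (SE, limma adjusted p = 3.95e-16). Krt13 rose from 0.078 ± 0.0559 to 8.03 ± 2.29 FPKM. Krt15 rose by only 0.43 ± 0.16 (adjusted p = 0.0321), which did not hold under median of ratios (adjusted p = 0.076) or against all shams (adjusted p = 0.267). As a check for tissue of the anal margin, 13 squamous markers were summed, and the sum was 28.0 to 44.6 FPKM in wounds and 2.32 to 4.6 FPKM in shams. Krt14 made up most of that sum in every wound library, so the sum largely repeats its rise. Of the 13 markers, 6 passed the expression filter and 3 rose (2 under median of ratios, and 5 with a pseudocount of 0.1). In 4 of the 6 every wound library lay above every sham, against 26.1% of all genes. Markers low in shams could pass the filter through wound libraries. Ivl and Sprr3, markers of the outer squamous layers, were listed at 0 in all 10 libraries.

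Of 18 tested genes of secreted defense and the acute phase, 11 were higher and 3 lower under either scaling. Without the 2 libraries rich in B cell genes, 11 were higher and 2 lower. The shares of all genes were 34.1% higher and 10.2% lower (18.1% and 17.7% under median of ratios). Against all 19 shams 11 of the list were higher and none lower. Retnlb, an antibacterial product of goblet cells, was at 19.2, 19.4, 14.7, 18.5 and 19.6 FPKM in wounds and at 0, 0.119, 0.292, 0.45 and 0.682 FPKM in shams. No sham came near a wound library, and Retnlb rose by 3.9 ± 0.24 (SE, limma adjusted p = 2.67e-15). Hp, the hemoglobin scavenger haptoglobin, rose from 0.494 ± 0.681 to 16.7 ± 5.09 FPKM and the acute phase gene Saa3 from 2.23 ± 0.705 to 28.0 ± 5.84 FPKM. Its relative Saa1, whose sequence is close to that of Saa2 so that reads may be split, was far more abundant. It fell from 2682 ± 463 to 1665 ± 200.1 FPKM (-0.68 ± 0.18, adjusted p = 0.00219). That call was lost against all 19 shams of the time course (-0.15, adjusted p = 0.523), and the 6 d shams held more Saa1 than the other shams by 0.7 (adjusted p = 0.000436). Reg3g, a lectin against Gram-positive bacteria, was listed at 0 in 1 wound library and 2 shams and was at most 3.69 FPKM elsewhere, with no call (0.05 ± 0.3, adjusted p = 0.907). Reg3b was under the filter.

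Cytokine and chemokine genes of acute inflammation were still higher at 6 d in 14 of 18 tested members, with none lower (11 under median of ratios) and a median change of 1.17. Il1b was at 36.6, 9.95, 21.1, 8.27 and 17.2 FPKM in wounds and at 0.519, 1.91, 0.841, 1.1 and 0.896 FPKM in shams. Wound library 1 was highest, the groups did not overlap, and the change was 3.11 ± 0.44 (SE, limma adjusted p = 8.35e-07). The same library led for the neutrophil attractants Cxcl2, with 27.4 FPKM against 2.39 to 4.66 FPKM in the other wounds, and Cxcl3, with 12.2 FPKM against 2.36 to 4.66 FPKM. Cxcl2 rose by 2.45 ± 0.54 and Cxcl3 by 2.38 ± 0.37. Cxcl5, a chemokine made by epithelium, had a different spread, at 19.9 to 34.4 FPKM in wounds and 1.35 to 5.24 FPKM in shams. Levels of Il6 were low, 1.21 ± 0.343 against 0.0137 ± 0.0188 FPKM, with a rise of 1.11 ± 0.24. The inducible cyclooxygenase Ptgs2 rose from 1.07 ± 0.371 to 3.34 ± 1.45 FPKM (adjusted p = 0.00833).

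Markers of several leukocytes were higher in the wound bed. In bulk RNA, more cells of a type and more RNA per cell cannot be told apart, here and for every cell type below. Of 18 neutrophil markers 13 passed the expression filter, and 11 of those rose (10 under median of ratios), against 34.1% of all genes. The list summed to 25.4 to 69.2 FPKM in wounds and 1.33 to 3.06 FPKM in shams. Markers so low in shams could pass the filter through wound libraries, so the count is not independent of the rise. S100a9, a subunit of calprotectin, was at 30.1, 8.76, 20.4, 8.95 and 11.9 FPKM in wounds and at 0, 0.358, 0.265, 0.097 and 0.28 FPKM in shams. Wound libraries 1 and 3 were highest and the groups were apart, with a rise of 3.68 ± 0.43 (SE, limma adjusted p = 1.97e-08). Its partner S100a8 rose by 3.31 ± 0.4. Of 20 general macrophage and monocyte markers, 8 rose and 1 fell (5 and 1 under median of ratios), with Cd14, the co-receptor for bacterial lipopolysaccharide, at 29.7 ± 3.48 FPKM in shams and 56.4 ± 6.83 FPKM in wounds. Without the 2 libraries rich in B cell genes, 5 rose and 1 fell, against 30.3% and 8.29% of all genes, and without sham 3 also 5 rose. The member that fell was the resident macrophage scavenger receptor Cd163, named after its values were seen, from 1.53 ± 0.409 to 0.805 ± 0.106 FPKM.

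Genes linked to macrophages in repair rose in 9 of 16 tested members and fell in 2 (8 and 2 under median of ratios). Of all genes tested, 34.1% rose and 10.2% fell (18.1% and 17.7% under median of ratios), so the count of falls was near that share. Arg1, which turns arginine into ornithine for collagen and polyamine synthesis, was at 18.1, 8.44, 9.27, 5.35 and 11.3 FPKM in wounds and at 0.0437, 0.261, 0.139, 0.231 and 0 FPKM in shams, a rise of 3.25 ± 0.26 (SE). Retnla went the other way, at 0.313, 0.238, 2.51, 0 and 0.116 FPKM in wounds and 20.3, 6.6, 8.21, 10.7 and 22.6 FPKM in shams. Both were non-overlapping, in opposite directions, and Retnla fell by 3.2 on the log2 scale (SE 0.52, limma adjusted p = 7.67e-06). The mitochondrial arginase Arg2 rose by 1.72 ± 0.18 and the inducible nitric oxide synthase Nos2, which uses the same substrate, by 1.61 ± 0.26. Hmox1, the heme-degrading oxygenase, rose by 1.52 ± 0.22.

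Mast cell protease genes rose as well. Of 15 genes of the mast cell and eosinophil list, 4 passed the expression filter. All 4 were higher (4 under median of ratios), against 34.1% of all genes. Genes low in shams could pass the filter through wound libraries, so the count is not independent of the rise. Mcpt1 was at 2.77, 3.17, 4.72, 3.16 and 1.88 FPKM in wounds and at 0.334, 0.363, 0.249, 0.431 and 0.265 FPKM in shams. The groups did not overlap, and Mcpt1 rose by 1.61 ± 0.13 (SE, limma adjusted p = 3.16e-12). The related protease gene Mcpt2 rose by 1.56 ± 0.15, the histidine decarboxylase Hdc, which makes histamine, by 1.11 ± 0.34, and the chymase Cma1 by 1.05 ± 0.2. Of 9 tested T and NK cell genes 5 rose (3 under median of ratios and 3 without sham 5), including the cytotoxic protease Gzmb (0.96 ± 0.11) and the inhibitory receptor Ctla4 (0.91 ± 0.13). For both genes wound library 3, rich in B cell genes, was far above the other wounds, with 5.97 and 3.32 FPKM against at most 3.59 and 1.32 FPKM. Both calls held without that library and sham 2, at 0.91 and 0.79. No B cell gene of 11 tested passed in limma (0 at an unadjusted p under 0.05). Of 8 plasma cell genes 4 rose (3 under median of ratios), led by Fkbp11, a folding enzyme of secretory cells (1.34 ± 0.17).

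Endothelial genes rose in 12 of 16 tested members, with none lower (9 under median of ratios) and a median change of 0.74. The leukocyte adhesion molecules Madcam1 and Selp rose from 1.04 ± 0.748 to 4.65 ± 2.59 FPKM and from 0.681 ± 0.102 to 2.95 ± 0.68 FPKM. Egfl7, an endothelial secreted protein, rose by 1.08 ± 0.21. Of 5 lymphatic vessel markers 1 rose and 2 fell under either scaling, with Pdpn, which fibroblasts and epithelium also make, higher (1.07 ± 0.17) and the hyaluronan receptor Lyve1 lower, from 11.9 ± 1.69 to 6.48 ± 0.979 FPKM. General fibroblast markers rose in 5 of 14 and fell in 1 (4 and 2 under median of ratios), near the 34.1% and 10.2% of all genes. Their median change was 0.22, against 1.43 for the collagens. Without the 2 libraries rich in B cell genes 5 rose and none fell, and none fell when any of 7 of the 10 libraries was left out singly.

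Secreted signals of the mesenchyme changed in both directions. In the TGF-beta and activin list 9 of 14 rose and 1 fell, and in the list of IGF, HGF, FGF and PDGF signals 9 of 15 rose and 1 fell (8 and 1 in each under median of ratios). Igf1, a growth factor made by macrophages and stroma, rose from 1.07 ± 0.193 to 4.01 ± 0.345 FPKM. Of 12 Wnt ligands, R-spondins and secreted inhibitors, 5 rose (4, with 2 lower, under median of ratios), the largest being the Wnt antagonist Sfrp1, from 5.42 ± 1.43 to 20.3 ± 5.71 FPKM. Of 18 BMP and hedgehog genes, 1 rose and 5 fell (1 and 6 under median of ratios), and 2 rose without wound library 1 or without sham 4. Over all genes tested, 34.1% rose and 10.2% fell (18.1% and 17.7% under median of ratios).

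Genes of cell division rose in 17 of 24 tested members (14 under median of ratios), with a median change of 0.6. Rrm2, a subunit of ribonucleotide reductase, rose from 4.23 ± 0.59 to 9.34 ± 1.6 FPKM and the mitotic gene Birc5 from 17.4 ± 1.77 to 33.0 ± 4.81 FPKM. The proliferation marker Mki67 rose less, by 0.42 ± 0.15 (limma adjusted p = 0.0219), its groups overlapped, and the call was lost under median of ratios (adjusted p = 0.1). Of 16 crypt base genes 6 rose and 1 fell (5 and 3 under median of ratios), near the 34.1% and 10.2% of all genes. The stem cell receptor Lgr5 was at 2.25, 3.32, 1.59, 2.59 and 2.45 FPKM in wounds and at 1.26, 0.941, 1.41, 1.87 and 1.22 FPKM in shams. Wound library 3 lay below the highest sham, so the groups overlapped, and Lgr5 rose by 0.55 ± 0.16 (adjusted p = 0.00497). Smoc2, also enriched in crypt base cells, rose from 12.1 ± 2.84 to 25.0 ± 4.97 FPKM.

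Goblet cell genes rose in 11 of 16 and fell in 1 (8 and 1 under median of ratios). Spink4, a protease inhibitor packed with mucin, was at 3082, 2860, 2089, 3230.2 and 2966 FPKM in wounds and at 680.3, 701, 1114, 791 and 719.6 FPKM in shams. Wound library 3 was the lowest wound and was still above every sham, and Spink4 rose by 1.84 ± 0.14 (SE, limma adjusted p = 1.4e-12). Clca1, a mucus-processing protease, rose by 1.23 ± 0.19 and the main mucin gene Muc2 from 351 ± 37.9 to 632 ± 68.1 FPKM. The lectin-like Zg16, also a goblet product, fell from 2827 ± 608 to 1929 ± 258 FPKM (adjusted p = 0.0228), a call that was lost under quantile normalization (adjusted p = 0.0763), without wound library 1 (0.0632) and without sham 3 (0.0896). Muc2 and Zg16 were named after their values were seen. In the list of unfolded protein response genes, which serve secretory cells among others, 11 of 15 rose (7 under median of ratios).

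Genes of the absorptive surface were lower in the wound bed. Of 21 tested genes of colonocyte transport and differentiation, 17 fell and 3 rose (17 and 2 under median of ratios). The shares of all genes were 10.2% and 34.1% (17.7% and 18.1% under median of ratios). The summed level of the list was 2729 to 3349 FPKM in wounds and 5406 to 6107 FPKM in shams. Slc26a3, which exchanges luminal chloride for bicarbonate, was at 125, 66.8, 119.6, 119 and 95.3 FPKM in wounds and at 501, 511, 417, 527 and 555 FPKM in shams. Car4, a membrane-bound carbonic anhydrase, was at 265, 221, 436, 274 and 286 FPKM in wounds and at 1208, 1199, 1271, 1350.4 and 1361 FPKM in shams. Both were lower in every wound library, by 2.28 and 2.14 on the log2 scale (SE 0.17 and 0.14), and wound library 2 held the least of both. The cytosolic carbonic anhydrase Car1 was more variable, at 278, 495, 385, 695 and 392 FPKM in wounds and 1045, 1137, 909, 1103 and 1292 FPKM in shams, a fall of -1.35 ± 0.2. The 6 d shams held less Car1 than the other shams (-0.8, adjusted p = 0.000395), and the fall was larger against all shams (-1.93). The phosphate transporter Slc20a1 fell from 168 ± 19.9 to 60.7 ± 15.8 FPKM. Among the exceptions, Guca2b, which encodes the peptide uroguanylin, rose from 8.59 ± 1.28 to 20.0 ± 2.67 FPKM (1.13 ± 0.12), and it was named after its values were seen.

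Other falls among the largest were in Mptx1 and Mptx2, which encode mucosal pentraxins and are close copies that may share reads, from 1442 ± 255 to 385 ± 133 FPKM and from 67.1 ± 13.1 to 17.9 ± 7.27 FPKM. Selenbp1, a selenium-binding protein of mature colonocytes, was at 635 ± 27.8 FPKM in shams and 190.4 ± 15.1 FPKM in wounds. Vdr, the vitamin D receptor, fell from 167 ± 13.4 to 83.2 ± 9.68 FPKM. Upp1, a uridine phosphorylase, and Cyp2d12, a cytochrome P450, fell by 1.79 and 1.76 on the log2 scale, but the 6 d shams held more of both than the other shams, and against all shams the changes were -0.95 and -1.06. Drug- and toxin-handling enzymes fell in 16 of 21 tested members, with none higher under either scaling and a median change of -0.65. Of all genes tested, 10.2% fell (17.7% under median of ratios). The sulfotransferase Sult1a1 fell from 132 ± 19.8 to 41 ± 2.68 FPKM, the cytochrome P450 Cyp3a13 by 1.13 ± 0.17 and the carboxylesterase Ces1d by 1.09 ± 0.19 on the log2 scale. Smaller falls were seen in fatty acid oxidation and ketogenesis (10 of 19, median -0.23), the respiratory chain and ATP synthase (11 of 18, 1 higher, median -0.17) and glycolysis and hypoxia genes (9 of 20, 2 higher, median -0.17). Under median of ratios 15, 16 and 11 members of these lists fell, and none, none and 1 rose. Without the 2 libraries rich in B cell genes, 6 fatty acid oxidation genes fell, and 5 of the glycolysis list fell and 1 rose. The fatty acid oxidation count was also 6 without wound library 2.

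Clock output genes were lower in the wound bed, in 11 of 17 tested genes of the circadian list with 2 higher (11 and 1 under median of ratios). Among all genes tested, 10.2% were lower and 34.1% higher (17.7% and 18.1% under median of ratios). Dbp, a transcription factor under direct control of the clock, was at 27.8, 4.18, 9.48, 9.52 and 27.1 FPKM in wounds and at 73.5, 62.5, 29.3, 63.3 and 82.1 FPKM in shams. Wound libraries 1 and 5 came close to sham 3, the lowest sham, and the groups did not overlap. Dbp fell by 2.14 on the log2 scale (SE 0.36, limma adjusted p = 1.15e-05). Usp2, a clock-controlled deubiquitinase, fell from 18.2 ± 5.12 to 3.73 ± 0.905 FPKM. Ciart and Tef fell by 1.76 and 1.15, with overlap because sham 3 was again the lowest sham. Nfil3, a repressor that competes with Dbp for its binding sites, was at 0.532 to 1.18 FPKM in shams and 3.41 to 4.62 FPKM in wounds (1.39 ± 0.19). The labels give no time of day for either group, so a difference in sampling hour was not tested.

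Smooth muscle genes were lower in part. Of 14 tested, 8 fell (11 under median of ratios), against 10.2% of all genes (17.7% under median of ratios). Among them was the smooth muscle myosin Myh11, at 63.6, 139, 62.8, 50.6 and 81.7 FPKM in wounds and at 180.1, 154, 204, 252 and 256 FPKM in shams. Wound library 2 was near the lowest sham, and Myh11 fell by 1.45 on the log2 scale (SE 0.41, limma adjusted p = 0.00426). Synm and Myl9, an intermediate filament protein and a myosin light chain, fell by 1.45 and 1.03. Acta2, which smooth muscle and myofibroblasts share, did not pass, at 301 ± 84.0 FPKM in wounds and 438 ± 71.0 FPKM in shams (adjusted p = 0.15), although it passed when only the 10 libraries were fitted (-0.56, adjusted p = 0.0223). The summed level of the list was 1785 to 3661 FPKM in wounds and 2971 to 4762 FPKM in shams, and how much muscle each sample held was not tested. The count of falls was 5 to 11 when single libraries were left out (5 without wound 3, wound 4, sham 4 or sham 5) and 5 without the 2 libraries rich in B cell genes.

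Interferon-stimulated genes were lower in wounds than in the 6 d shams, and here the controls themselves stood apart. Of 16 tested members 13 fell and none rose (13 under median of ratios), although 1 rose without sham 1, with a median change of -0.82. Oasl2, of the oligoadenylate synthetase family of antiviral proteins, was at 16.9, 28.0, 28.1, 22.5 and 10.2 FPKM in wounds and at 99.6, 38.1, 89.5, 47.1 and 61.9 FPKM in the 6 d shams. Ifit1, which binds foreign RNA ends, was at 4.63, 8.89, 10.7, 9.12 and 3.4 FPKM in wounds and at 51.3, 12.6, 25.7, 14.2 and 15.8 FPKM in the 6 d shams. Neither gene overlapped between groups, and they fell by 1.62 and 1.48 on the log2 scale (SE 0.33 and 0.32, limma adjusted p = 0.000151 and 0.000374). The ubiquitin-like Isg15 overlapped, with 33.3 FPKM in wound 4 and 28.4 FPKM in sham 4, and fell by 1.27 ± 0.33. Irf7, a transcription factor of the interferon response, fell from 129 ± 39.0 to 51.9 ± 13.5 FPKM, and Ddx60, a helicase of the antiviral response, from 11.5 ± 4.14 to 3.19 ± 1.41 FPKM.

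All 16 genes of the list were higher in the 6 d shams than in the mean of the 1 h, 6 h and 3 d shams, where 8.28% of all genes were higher and 17.5% lower. The difference was 3.81 for Oasl2, 3.39 for Ifit1, 3.47 for Isg15 and 1.74 for Irf7. The list summed to 318 to 680.3 FPKM in the 6 d shams, 174 to 312 FPKM in the 6 d wounds and 94.6 to 143 FPKM in the 14 other shams. Both 6 d groups were thus above the earlier shams, and the 6 h wounds were the highest of all at 598 to 939.9 FPKM. With all 19 shams as controls, 4 members of the list rose and none fell, against 31.4% and 11.5% of all genes. On that basis Oasl2 changed by 1.18 (adjusted p = 0.135), Ifit1 by 1.01 (0.16), Isg15 by 1.29 (0.0781) and Irf7 by 0.02 (0.972). The same held for Apol9a and Apol9b, close copies that were among the 15 largest falls against the 6 d shams (-1.85 and -1.78), with changes of 0.48 (0.482) and 0.26 (0.681) against all shams. The fall of these genes at 6 d is therefore a difference from the shams of that day. Time since the sham procedure and any other difference between the 6 d shams and the earlier shams cannot be told apart.

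Promoters of 3 of these genes are shown because their windows hold the core of the interferon-stimulated response element (ISRE), 2 copies of GAAA with any 2 bases (NN) between them. It was searched on both strands, and capitals mark it, with overlapping matches merged. They are from RefSeq in build GRCm38.p6, 250 bases before to 50 after the annotated start, 5′ to 3′ on the gene's strand, at chr19:34640639-34640938 (plus strand) for Ifit1, chr4:156200769-156201068 (minus strand) for Isg15 and chr8:61927837-61928136 (plus strand) for Ddx60.
Ifit1: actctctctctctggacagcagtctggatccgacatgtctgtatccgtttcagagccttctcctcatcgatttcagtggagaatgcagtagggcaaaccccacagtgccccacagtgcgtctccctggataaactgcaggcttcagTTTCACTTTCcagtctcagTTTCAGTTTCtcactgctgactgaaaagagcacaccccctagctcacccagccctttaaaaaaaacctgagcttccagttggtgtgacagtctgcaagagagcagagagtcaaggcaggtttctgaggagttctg
Isg15: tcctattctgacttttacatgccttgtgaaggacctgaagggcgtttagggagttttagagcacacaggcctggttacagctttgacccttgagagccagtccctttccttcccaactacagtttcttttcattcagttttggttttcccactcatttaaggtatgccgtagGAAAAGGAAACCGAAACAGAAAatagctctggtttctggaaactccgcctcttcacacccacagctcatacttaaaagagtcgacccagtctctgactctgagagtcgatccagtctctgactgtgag
Ddx60: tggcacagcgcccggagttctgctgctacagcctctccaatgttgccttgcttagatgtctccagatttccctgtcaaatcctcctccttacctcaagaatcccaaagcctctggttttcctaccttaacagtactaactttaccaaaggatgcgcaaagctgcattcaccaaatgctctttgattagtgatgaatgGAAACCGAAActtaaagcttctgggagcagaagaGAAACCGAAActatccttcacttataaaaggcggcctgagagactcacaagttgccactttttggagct
The window of Ifit1 holds 2 matches, that of Isg15 holds 3 and that of Ddx60 holds 2. The core was present in a window of 7 of the 12 list genes with a promoter in the table (58.3%) and in 3.99% of all 27025 genes. For the circadian list, the E-box CACGTG was present in 5 of 15 genes (33.3%: Per1, Cry1, Tef, Ciart and Bhlhe41) and in 8.09% of all genes.

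**Figure D3:**
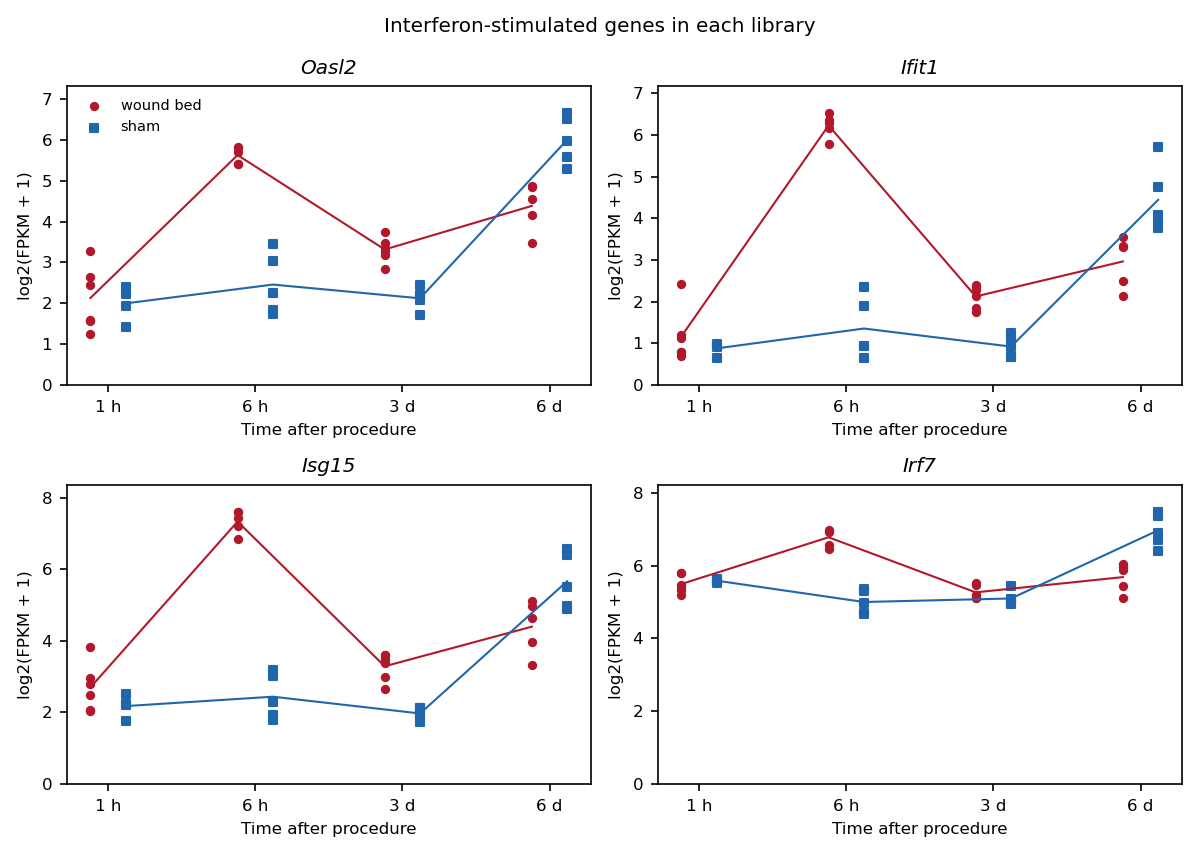
Level of Oasl2, Ifit1, Isg15 and Irf7 in each library of the time course on a log2(FPKM + 1) scale, against time after the procedure, with circles for wound beds, squares for shams and lines through group means. Shams at 6 d lie above shams of the other times and above the 6 d wound beds, with overlap for Isg15, and the 6 h wound beds are the highest wound beds.

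Genes of the interferon-gamma response did not share this pattern between the 6 d groups. Of 15 tested, 3 rose and none fell, against 34.1% and 10.2% of all genes. Under median of ratios 2 rose and none fell, and the same counts held without the 2 libraries rich in B cell genes. All 15 were, however, higher in the 6 d shams than in the other shams. With all shams of the time course as controls, all 15 rose and none fell, against 31.4% and 11.5% of all genes. The median change was 1.43 on that basis and 0.05 against the 6 d shams. The count of 3 therefore depends on which shams serve as controls. The summed level of the list was 373 to 607 FPKM in wounds and 295 to 626 FPKM in shams at 6 d, and at most 165 FPKM in any other sham. Of 11 antigen presentation genes of MHC class II, 8 were higher in the 6 d shams than in the mean of the others. Their sums overlapped, however, at 766 to 1775 FPKM in the 6 d shams and 674 to 1468 FPKM in the 1 h shams. Sham 2, rich in B cell genes, was the highest, and the part of B cells in this was not tested. In the wounds 1 of the 11 fell under either scaling. Nos2 was likewise higher in the 6 d shams than in the other shams, by 1.57, and its rise in the wound bed was larger against all shams (2.77).

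The last question was how the wound effect at 6 d differed from that at 3 d, which was measured in other libraries (6 wounds and 5 shams). Of the 5875 genes called at 6 d, 3811 (64.9%) were called in the same direction at 3 d, which is 67.3% of the 5666 called there (42.6% of genes tested), and 43 were called in opposite directions. Effects correlated across genes with r = 0.74, where genes are not independent replicates. A test of the difference itself called 244 genes (1.84%), 109 with a higher effect at 6 d (0.82%) and 135 with a lower one (1.02%). With single libraries left out the count ranged from 146 (without 6 d wound 2) to 521 (without 3 d sham 1).

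**Figure D4:**
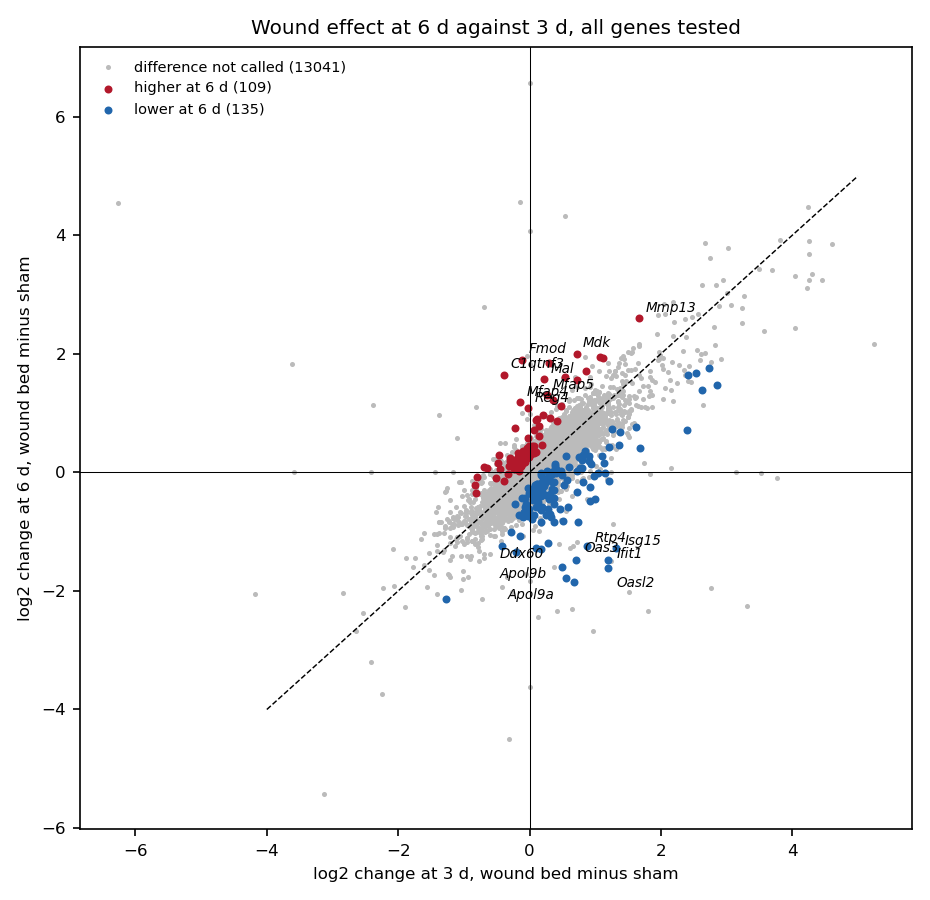
Wound effect at 6 d (vertical) against 3 d (horizontal), both as log2 change of wound minus sham, for all 13285 genes tested. Coloured points are the 109 genes with a higher and 135 with a lower effect at 6 d, names mark the 8 largest called differences in each direction, and the dashed line marks equal effects. Oasl2, Ifit1 and Isg15 lie below the line, and Fmod and C1qtnf3 lie above it.

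Of the matrix lists, 1 of 18 collagens, 3 of 25 crosslinking and assembly genes, 2 of 18 proteases and inhibitors and none of 13 matricellular genes had a higher effect at 6 d than at 3 d. Fmod was at 3.52, 3.45, 4.5, 10.4 and 9.15 FPKM in the 6 d wounds and at 0.869, 0.738, 0.743, 0.757 and 0.768 FPKM in their shams. At 3 d the group means were 0.626 ± 0.666 FPKM in 6 wounds and 0.692 ± 0.335 FPKM in 5 shams. The effect thus went from -0.11 at 3 d to 1.9 at 6 d, a difference of 2.01 ± 0.28 (SE, limma adjusted p = 6.25e-05). C1qtnf3, a secreted C1q and TNF-related protein, was at 11.1, 15.7, 12.2, 46.3 and 21.4 FPKM in 6 d wounds and 4.82 to 5.81 FPKM in their shams, with wound 4 highest. Its effect was -0.38 at 3 d and 1.65 at 6 d (difference 2.03 ± 0.41, adjusted p = 0.00603). That call was lost under the replicate block (limma adjusted p = 0.087).

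The microfibril genes Mfap4 and Mfap5 had effects of -0.14 and 0.26 at 3 d and of 1.19 and 1.3 at 6 d (adjusted p of the difference = 0.0353 and 0.0304), calls that were lost under 12 and 9 of 31 alternatives. Mdk, the heparin-binding growth factor midkine, was at 7.77, 7.95, 7.59, 10.6 and 11.0 FPKM in 6 d wounds and at 1.03, 1.32, 1.05, 2.17 and 1.96 FPKM in their shams. Its effect was 0.72 at 3 d and 2.0 at 6 d (difference 1.28 ± 0.25, adjusted p = 0.00367). Mal, a membrane raft protein of epithelial cells, went from 0.22 to 1.57, a call that was lost under 6 of 31 alternatives, and Mmp13 from 1.67 to 2.61, although the difference of Mmp13 was lost with a pseudocount of 0.1 (adjusted p = 0.328). Reg4, a lectin of enteroendocrine and deep crypt secretory cells, went from -0.02 to 1.09, a call that was lost under 4 of 31. The 6 d shams held less Reg4 than the other shams (-0.81), and against all shams its change at 6 d was 0.5. The mast cell proteases Mcpt1 and Mcpt2 had differences of 1.07 and 0.84 (adjusted p = 0.000504 and 0.0291), and the call of Mcpt2 was lost under 8 of 30 alternatives, among them a fit of only the groups compared (adjusted p = 0.116).

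By contrast, Col1a1 changed by 1.95 at 3 d and 2.66 at 6 d, a difference that did not pass (0.71 ± 0.35, adjusted p = 0.344), and neither did that of Lox (0.21 ± 0.25, adjusted p = 0.754). Among the smaller effects at 6 d that did not pass were those of Arg1, Timp1 and Il1b. Arg1 differed by -1.2 ± 0.35 (adjusted p = 0.0688), Timp1 by -1.01 ± 0.35 (0.134) and Il1b by -1.12 ± 0.61 (0.396). In the acute cytokine list 1 of 18 members had a lower effect at 6 d by that test. Of the 21 colonocyte genes, 4 had a lower effect at 6 d than at 3 d, among them Car4 (-0.87 ± 0.19, adjusted p = 0.0121), a call that was lost when only the groups compared were fitted (adjusted p = 0.0739) and under the replicate block (adjusted p = 0.156). The 8 largest called differences toward 3 d were Oasl2 (-2.81), Ifit1 (-2.68), Isg15 (-2.58), Apol9a (-2.52), Apol9b (-2.34), Oas3 (-2.19), Rtp4 (-2.11) and Ddx60 (-2.09). All 8 rest on the 6 d shams described above. Of the list, 12 of 16 members differed this way.

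**Figure D5:**
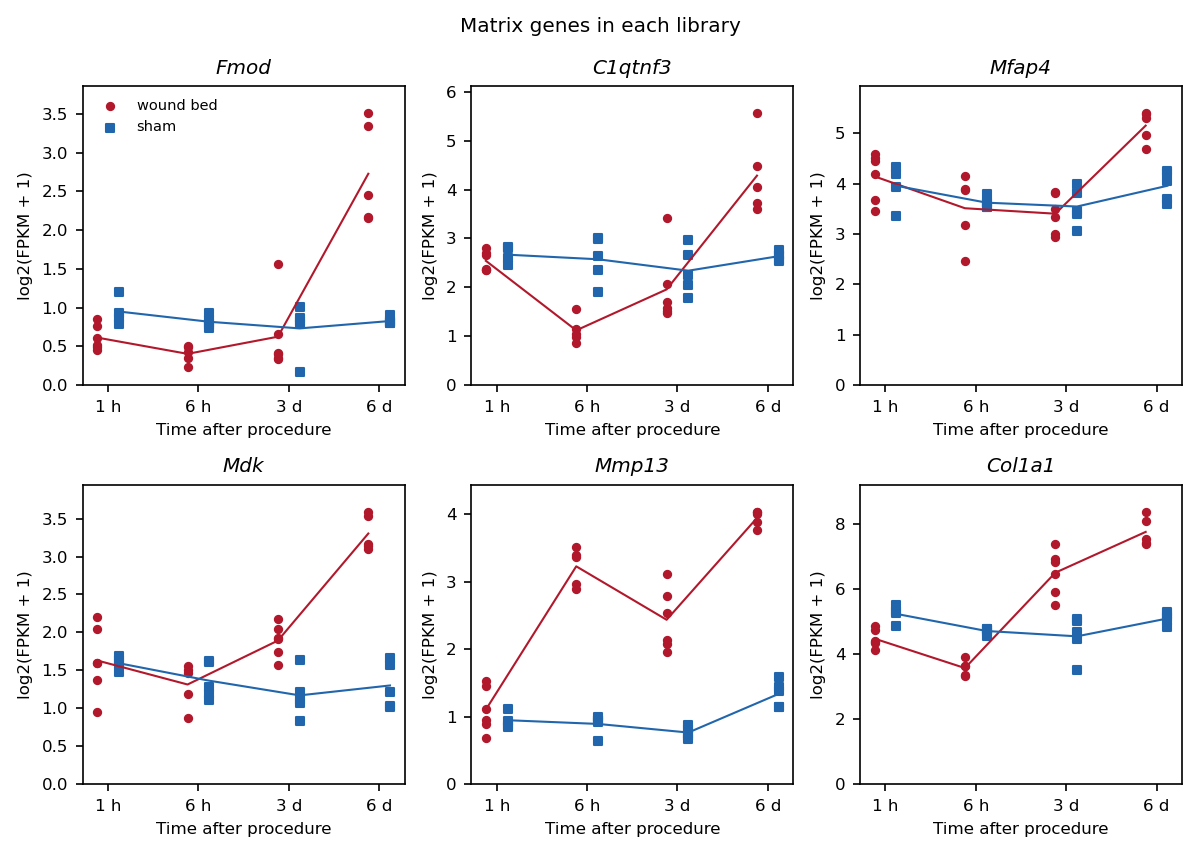
Level of Fmod, C1qtnf3, Mfap4, Mdk, Mmp13 and Col1a1 in each library of the time course on a log2(FPKM + 1) scale, against time after the procedure, with circles for wound beds, squares for shams and lines through group means. Fmod, C1qtnf3 and Mfap4 separate from the shams upward at 6 d, whereas Col1a1 does so at 3 d as well.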

How the data were processed

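The authors deposited FPKM per gene symbol for each library. STAR alignment to mm10 and Cufflinks gene levels are named in the submitters' processing notes. Versions, annotation and use of strand were not given in any source used here. Per the labels' protocols, total RNA was isolated with RNeasy kits, selected for poly(A) and prepared with the TotalScript RNA-Seq kit. FPKM keep no read counts, so depth and counting precision are unknown, and a gene that overlaps or resembles another may hold its reads.

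Files of the 41 libraries of the time course were joined by symbol. The other 23 libraries of the series, a cohort with arms, were not used here. Values were taken as log2(FPKM + 1), and a gene was tested where 4 or more libraries held 1 FPKM or more (13285, with 10712 symbols not tested). Wound libraries alone could meet this filter, so counts in lists of genes low in shams are not independent of a rise. limma 3.58.1 in R 4.3.3 fitted 1 mean per group of 8 groups with moderated variances that follow a trend with level (33 residual degrees of freedom). Contrasts were wound minus sham at 6 d and that effect minus the one at 3 d, with Benjamini-Hochberg adjustment over all genes and calls at an adjusted p under 0.05. The fit was tested on simulated data. The contrast of the 6 d shams with the mean of the earlier shams was added as a description of the controls after seeing the data.

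The 55 gene lists held 868 entries, of which 862 matched a symbol and 755 were tested, and 418 of 726 distinct genes were called. Members and lists were chosen with earlier results of these data known. Named genes were the 15 largest rises and falls among called genes whose groups did not overlap and whose higher group averaged 5 FPKM or more, up to 4 called members per list (up to 2 of the largest where none was called), the 8 largest differences from 3 d in each direction, and a panel of 16 genes. Predicted and unnamed genes, small RNAs, olfactory and vomeronasal receptors, immunoglobulin and T cell receptor segments, pseudogenes and Xist or Y-linked genes were passed over. Col14a1, Dcn, Sparcl1, Zg16, Saa1, Guca2b, Cd163 and Muc2 lie outside this rule and were named after their values were seen. Some genes that the rule names are not reported here.

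Replicate numbers gave no sign of pairing the libraries: deviations of same-numbered libraries from their group means correlated at -0.182 to 0.128. The highest correlation, 0.359, was between wound 3 and sham 2, the libraries richest in B cell genes. A weak effect shared by 2 libraries of an animal could not be seen this way, so pairing is not excluded. The alternatives changed the pseudocount (0.1), the filter (none, or 5 FPKM), the scaling (median of ratios over 15663 genes, quantiles, or without small RNA symbols), the model (array weights, the compared groups alone, a replicate block) or the samples (each library left out, all 19 shams as controls). Leaving out the 2 libraries richest in B cell genes was added after seeing the data. Python 3.11.15 with numpy 2.4.6, pandas 2.3.3 and matplotlib 3.10.9 made the tables and figures.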

Additional observations from a re-analysis of the deposited data

Results flagged for a closer look

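The effect at 6 d differed from that at 3 d by the test of the difference itself in 22 named genes. It was lower at 6 d in Oasl2 (-2.81), Ifit1 (-2.68), Isg15 (-2.58), Apol9a (-2.52), Apol9b (-2.34), Oas3 (-2.19), Rtp4 (-2.11), Ddx60 (-2.09) and Irf7 (-1.45), all interferon-responsive genes that were higher in the 6 d shams than in the earlier shams, and in Car4 (-0.87). It was higher at 6 d in the matrix genes C1qtnf3 (2.03), Fmod (2.01), Mfap4 (1.34), Mfap5 (1.04) and Mmp13 (0.94), in Mal (1.35), Mdk (1.28) and Reg4 (1.11), in the mast cell proteases Mcpt1 (1.07) and Mcpt2 (0.84), and in the lymphocyte genes Ctla4 (0.79) and Gzmb (0.76). The calls of Ctla4 and Gzmb were each lost under 3 of 30 alternatives, among them a pseudocount of 0.1 (limma adjusted p = 0.197 and 0.647).

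Single libraries stood far from the other 4 of their group in 24 of the 228 gene and 44 list groups of 5 values screened. The cut-off (Dixon's ratio, 0.71) flags about 1 in 20 groups of independent normal values. FPKM need not be normal and genes of 1 library can move together, so the rate by chance is unknown here. Wound library 3 held 602 FPKM of summed B cell markers (others 9.12 to 18.9), 707 FPKM of macrophage markers (others 415 to 449.6) and 70.9 FPKM of T and NK cell markers (others 13.4 to 17.1). The same library was high in Ctla4 (3.32 FPKM), Gzmb (5.97), Reg3g (3.69), Retnla (2.51) and Hba-a2 (2.91) and low in Spink4 (2089) and Retnlb (14.7). Sham 2, the other library rich in B cell genes, held 469 FPKM of macrophage markers (others 317 to 354) and was high in Cxcl5 (5.24), Cxcl2 (0.341), Plet1 (2.31) and Ltbp2 (1.37). Wound library 1 was high in Cxcl2 (27.4), and wound library 2 was low in Egfl7 (13.1). Sham 1 was high in Fmod (0.869) and low in Col18a1 (5.36), Col1a2 (44.3) and Pdpn (4.84). Sham 3 was low in Dbp (29.3) and Nos2 (0.8), and sham 5 held 109 FPKM of summed adipocyte markers (others 22.4 to 31.0).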

How the results depend on the processing

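At 6 d, 4524 genes were higher and 1351 lower. Median of ratios scaling gave 2407 and 2346 and quantile normalization 2456 and 2768, and every other alternative stayed within 1.5 times of both counts. With single libraries left out, the total was 5205 to 5649, with 4021 to 4404 higher and 1184 to 1302 lower. The replicate block gave 5649 genes, 4331 higher and 1318 lower. Only 1 of 5 wound libraries correlated best with the sham of its own number, and the labels do not state whether the numbers pair animals. Over 114 named genes and 21 alternatives, 2344 values kept their direction and side of the threshold, 22 lost the call, 3 gained it (Acta2 with array weights, the 10 libraries alone and the replicate block) and 9 changed sign. All 9 came from pooling the 19 shams: Oasl2 1.18, Ifit1 1.01, Isg15 1.29, Oas3 0.61, Rtp4 0.79, Ddx60 0.19, Irf7 0.02, Apol9a 0.48 and Apol9b 0.26. The cause was not tested beyond the higher level of these genes in the 6 d shams. Under the replicate block, Isg15 (-1.27, adjusted p = 0.0543) and Ly6d (2.14, adjusted p = 0.0886) lost their calls.

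The 244 differences from 3 d were less stable, with 109 higher and 135 lower at 6 d. Array weights gave 1006 (613 and 393), the groups compared alone 161 (67 higher) and the replicate block 74 (17 and 57). The number higher at 6 d was 72 with a pseudocount of 0.1, 59 with a filter of at least 5 FPKM, 176 after rescaling without small RNA symbols and 67 without the libraries richest in B cell genes. Leaving out single libraries gave 146 to 521 in total, 56 to 312 higher and 90 to 209 lower. The total was 521 without 3 d sham 1, 159 without 3 d sham 2, 146 without 6 d wound 2 and 155 without 6 d sham 1. The cause was not tested. Of 22 named differences, 626 values under the alternatives kept their call and 51 lost it, most often Mfap4 (12 of 31), Mfap5 (9 of 31), Mcpt2 (8 of 30) and Mal (6 of 31). Depth is unknown, so a gene listed near 0 in a group cannot be bounded by a count.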
